A study of Aedes aegypti with 19 samples.

Results

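The CYP6 and CYP9 families of cytochrome P450 genes were followed in the ovaries of *Aedes aegypti* females. The members are all genes whose symbol in the deposited tables begins with CYP6 or CYP9 directly followed by a letter. The rule gave 55 of 19381 genes, 35 of them CYP6 and 20 CYP9, among 117 genes with a CYP symbol. All 55 are annotated as protein coding, and they fall into 18 subfamilies, of which CYP9J with 14 members and CYP6N with 8 are the most numerous. The symbols were given by the annotation and the rule itself uses no measured value. The family was, however, chosen with earlier results of these data known.

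Cytochrome P450s are haem enzymes that insert oxygen into small lipophilic molecules, and they draw electrons from a P450 reductase in the endoplasmic reticulum. In insects the CYP6 and CYP9 families are best known for the oxidation of plant compounds and insecticides in the midgut, fat body and Malpighian tubules. In *A. aegypti*, members such as CYP9J24, CYP9J26, CYP9J28, CYP9M6 and CYP6BB2 oxidise pyrethroid insecticides in vitro. Most members have no known substrate in the ovary.

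Ovaries were taken 3, 10 and 20 days after a single meal of sheep blood (blood-fed, BF) and, on the same days, from females kept on sugar alone (sugar-fed, SF). The mosquitoes came from a colony from Poza Rica, Mexico, were 4 to 7 days old at feeding, and all, BF and SF, were kept on 10% sucrose. BF females could lay their eggs, and eggs still present were taken out of the ovaries before RNA was made. The 19 libraries of ribosome-depleted total RNA, each from the pooled ovaries of 1 group, were numbered 1, 2 and 4 in every group, and a replicate 3 was added for day 3 BF only, which makes 4 libraries in that group and 3 in each other group.

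Each library held between 34651820 and 56274885 reads on genes. Values are in CPM, a gene's reads scaled to the library's TMM-adjusted total. Differences are log2 fold changes of BF over SF from edgeR's quasi-likelihood test. They were called at an FDR p-value under 0.05 over the 13904 genes that passed the low-count filter. The germ line markers vasa and exuperantia (AAEL004978 and AAEL010097) summed to between 1194 and 1368 RPKM in day 3 BF libraries and to between 1463 and 1884 RPKM in day 3 SF libraries, so that the tissue label was met in both. Both were called lower in BF on day 3 (log2 fold change -0.38 for AAEL004978 and -0.39 for AAEL010097), and AAEL010097 alone was lower on day 10 (-0.52) and on day 20 (-0.47). Markers of other tissues were low, and some moved with the diet. Of 5 fat body genes (vitellogenins and vitellogenic proteases), 4 were higher in BF on each of the 3 days. Their day 3 log2 fold changes were between 1.49 and 3.01. The remaining gene, AAEL006542, was lower on day 3 (-0.41). All 5 summed to between 8.51 and 9.87 RPKM in day 3 BF libraries and between 8.64 and 10.5 RPKM in day 3 SF libraries. AAEL006542 alone held 5.90 to 8.20 RPKM in day 3 BF and 7.84 to 9.96 RPKM in day 3 SF libraries, so the sum hides the 4 rises. Of 4 midgut proteases, 3 were higher in BF on day 3 and 0 on day 10 or 20. All 4 summed to between 1.96 and 12.3 RPKM in day 3 BF libraries, the highest in replicate 3, against 0.316 to 4.52 RPKM in day 3 SF libraries. The protease not called on day 3, AAEL007818 (FDR p-value 0.278, edgeR), held 11.1 RPKM in BF replicate 3 and 3.93 RPKM in SF replicate 4. None of 7 prophenoloxidases, which mark hemocytes, was called on any of the 3 days, and no marker was at 0 in a whole group. The part of these tissues in the results below was not tested. In bulk ovary RNA, more cells of a type and more RNA per cell cannot be told apart.

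The members lie on all 3 chromosomes of the AaegL5.0 genome, with 7 on chromosome 1, 28 on chromosome 2, 19 on chromosome 3 and 1, CYP6AG4, on an unplaced scaffold. When neighbours at most 100 kb apart were joined, 45 of the 55 fell into 9 arrays of at least 2 members. The longest run of CYP6 genes was 13 members of the CYP6M, CYP6N, CYP6S and CYP6Y subfamilies at chr2:419111140-419289644, and 4 CYP6Z genes lay in a separate array at chr2:418852967-418890194. The longest run of CYP9 genes was 12 CYP9J genes at chr3:368428196-368657869. The genes are compact, 37 with 2 exons and 3 with 1 exon, and their annotated exons add up to between 1592 and 3160 bases, with a median of 1798. Of all members, 49 had at least 98% of their reads assigned uniquely. CYP6F2, with 0% unique reads, and CYP6AG4, with 72.3%, are therefore uncertain.

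Levels between members were compared on the deposited RPKM values, which are scaled to exon length. The family was weakly represented in the ovary, with 16 of 55 members (29.1%) at a mean of at least 1 RPKM over all libraries, against 47.4% of all genes. CYP9M6, CYP6Z9, CYP6Y3 and CYP9J9 made up 48.5% of the member RPKM summed over all 19 libraries, and the first 10 members made up 74.1%. By group the share of these 4 genes was 52.4% in day 3 BF and 43.2% in day 3 SF ovaries, and that of CYP6Y3 alone was 5.06% in day 3 BF and 18% in day 3 SF ovaries. CYP9M6 had the highest mean RPKM of all members in each BF group, at 38.1 on day 3, 10.4 on day 10 and 9.46 on day 20. In SF ovaries CYP6Y3 ranked first instead, at 8.52 on day 3, 6.89 on day 10 and 6.18 on day 20, followed by CYP9M6 at 5.60, 5.14 and 4.02. At the other end, CYP6N11 averaged 0.00505 RPKM over the 19 libraries.

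The summed RPKM of the 20 CYP9 genes was between 69.2 and 83.1 in day 3 BF libraries and between 14.3 and 17.4 in day 3 SF libraries. The 35 CYP6 genes summed to between 71.6 and 89.8 in day 3 BF libraries and to between 28.4 and 37.5 in day 3 SF libraries. On the later days the sums lay closer together, with all 55 members at 57.5 to 73.5 in BF and 38.6 to 44.4 in SF on day 10, and at 54.4 to 70.1 in BF and 33.2 to 41.5 in SF on day 20. BF and SF libraries did not overlap on any of the 3 days in these sums, and the day 3 BF libraries stood above all others.

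**Figure D1:**
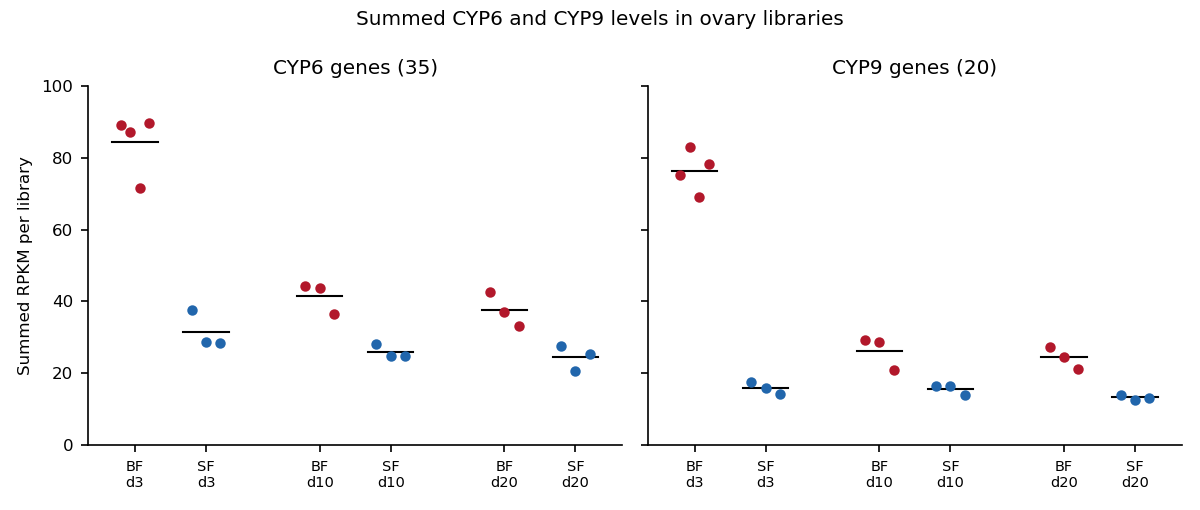
Summed RPKM per library (y axis) of the 35 CYP6 genes (left) and the 20 CYP9 genes (right) for BF and SF ovaries on days 3, 10 and 20 (d3, d10, d20); points are libraries and lines are group means. The 4 day 3 BF libraries sit between 71.6 and 89.8 for CYP6 and between 69.2 and 83.1 for CYP9, above every other library.

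On day 3, BF ovaries had higher levels of 29 of the 45 members that could be tested, and no tested member was lower (32.3% of all tested genes were higher and 32.6% lower). The median log2 fold change was 1.39 over the tested members, against 0.02 over all tested genes, and 27 members passed a log2 fold change of 1 as well (20.3% of all tested genes did so as rises). The calls took in 17 of 31 tested CYP6 genes and 12 of 14 tested CYP9 genes. Every BF library was above every SF library for 27 tested members (32% of all tested genes), and CYP6N17 was the one member with every BF library below every SF library (31.6% of all tested genes). Because the filter on low counts can keep a gene through BF alone, the members were also counted among genes that pass it in the SF libraries alone, an alternative chosen after the data had been seen: 24 of 38 such members were higher and 0 lower (31% and 35.1% of all such genes). With no filter, 28 of all 55 members were higher and 0 lower (25% and 25.7% of all genes with reads). The 0 falls rest on the fit, since CYP6N17 (log2 fold change -0.62, FDR p-value 0.0745 by edgeR) lay close to the threshold. Without replicate 3 of day 3 BF the members CYP6N17, CYP6AG6 and CYP6F3 were called lower beside 24 rises. With the replicate number as a block these members were called lower too.

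**Figure D2:**
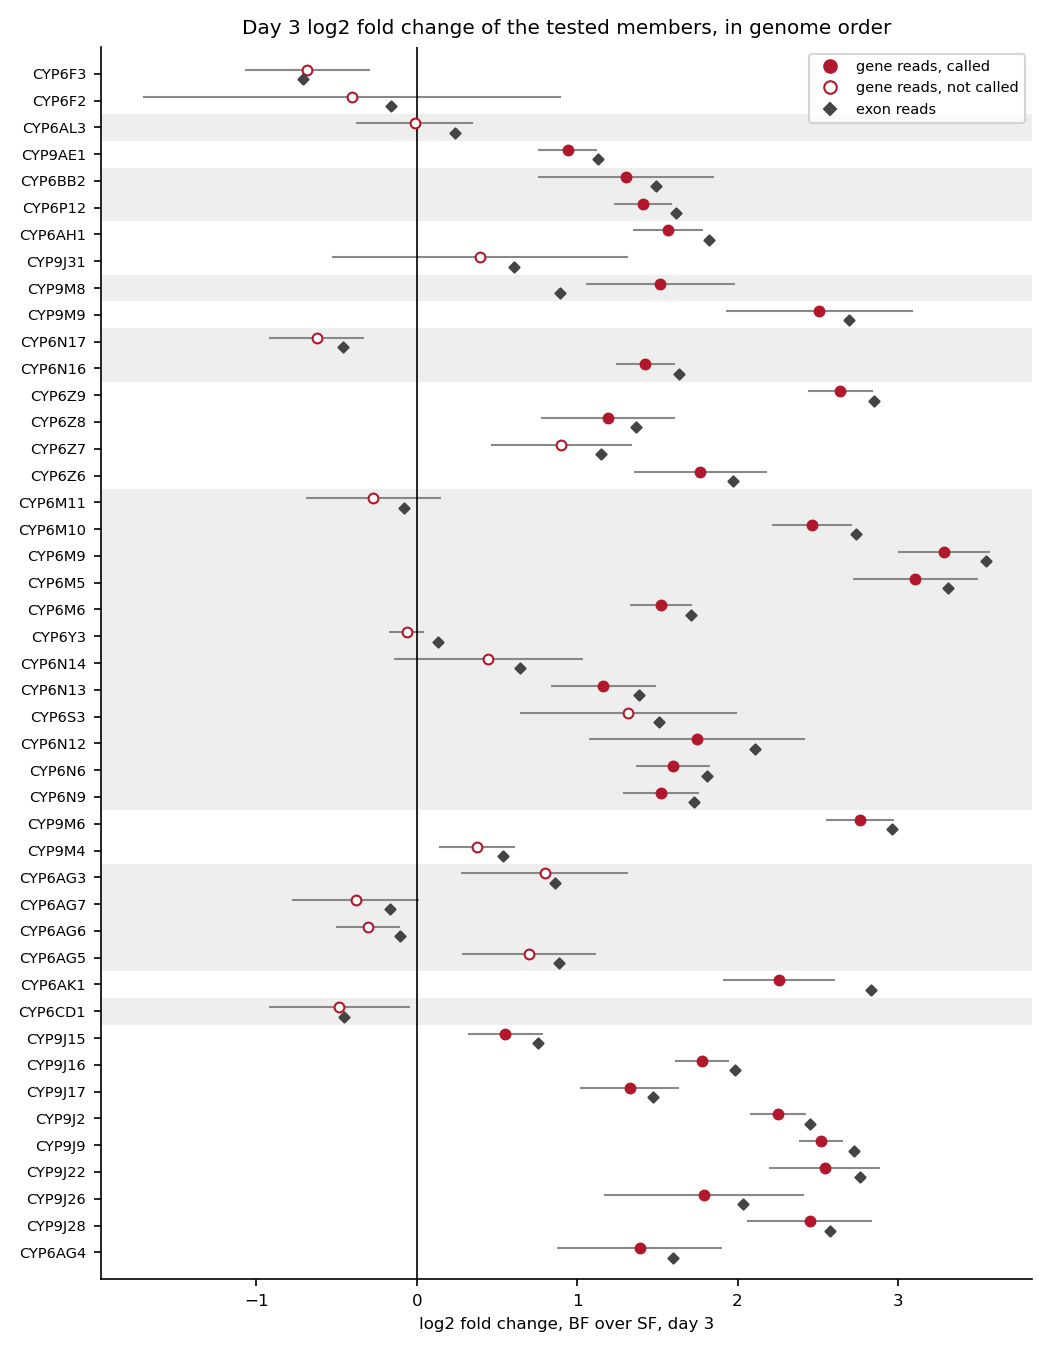
Day 3 log2 fold change of BF over SF (x axis) for the 45 tested members in genome order (y axis), with grey bands marking alternate arrays. Circles are gene reads with their standard error, filled where called and open where not, and diamonds are the same difference on exon reads; the 29 filled circles all lie to the right of 0.

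The CYP9M subfamily held the most abundant member. CYP9M6 (chr2:447504779-447506604, 2 exons), which oxidises permethrin in vitro, had 68.9, 80.9, 63.9 and 71.7 CPM in day 3 BF libraries, against 11.6, 10.1 and 9.75 CPM in day 3 SF libraries. The lowest BF library was well above the highest SF library, and the log2 fold change was 2.77 ± 0.21 (SE, edgeR, FDR p-value 1.19e-08). CYP9M9 moved in the same direction at far fewer reads, with a log2 fold change of 2.51 ± 0.58. It had 30, 18, 20 and 23 reads in BF libraries, against 6, 3 and 4 in SF libraries. CYP9M8 was called too (1.52 ± 0.46), but not on exon reads. CYP9M4 was not (0.38 ± 0.23, FDR p-value 0.169 by edgeR), and CYP9M7 was not tested.

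In the CYP9J array all 8 tested members were higher in BF ovaries on day 3 (32.3% of all tested genes), and the 4 others had too few reads for the test. One of the 8, CYP9J26, had at most 9 reads in any SF library and passed the filter through BF libraries. The count thus depends in part on the filter. Its most abundant member, CYP9J9 (chr3:368480816-368482897), had 34.1, 36.5, 28.4 and 38.5 CPM in BF libraries, against 6.12, 6.76 and 5.09 CPM in SF libraries. The groups lay far apart, and the log2 fold change of 2.52 ± 0.14 had the lowest FDR p-value among the members (4.54e-10, edgeR). CYP9J2 had 20.6, 25.4, 16.8 and 22.8 CPM in BF, against 5.60, 4.39 and 3.47 CPM in SF. Its log2 fold change was 2.25 ± 0.18. CYP9J16 had 11.2, 9.57, 8.17 and 11.1 CPM in BF and 3.28, 2.47 and 3.00 CPM in SF. In both genes no BF library came down to the SF range.

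CYP9J28, a pyrethroid oxidase in vitro, had 5.77, 3.04, 3.29 and 3.47 CPM in day 3 BF libraries, against 0.680, 0.624 and 0.8289 CPM in SF libraries. Its first BF library was far above the other 3, yet all 4 exceeded every SF library (log2 fold change 2.45 ± 0.39). CYP9J22 had 3.12, 3.32, 1.47 and 2.50 CPM in BF, against 0.440, 0.457 and 0.434 CPM in SF, with a log2 fold change of 2.54 ± 0.35. CYP9J17 was at 1.23, 0.957, 1.35 and 0.970 CPM in BF and at 0.600, 0.312 and 0.434 CPM in SF. CYP9J26, another pyrethroid oxidase, reached 1.79 ± 0.62 and CYP9J15 0.55 ± 0.23. The call of CYP9J15 (FDR p-value 0.0457, edgeR) was lost in 15 of the fits that leave out 1 library, and that of CYP9J26 in 3.

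Among the CYP6Z genes, CYP6Z9 (chr2:418852967-418855332) had 41.8, 44.5, 33.1 and 51.0 CPM in day 3 BF libraries and 8.78, 5.99 and 5.72 CPM in day 3 SF libraries. The BF and SF ranges were far apart, at a log2 fold change of 2.64 ± 0.20 (FDR p-value 7.27e-09, edgeR). Its neighbours CYP6Z6 (1.77 ± 0.41) and CYP6Z8 (1.19 ± 0.42), which acts on pyrethroid breakdown products in vitro, were called as well. CYP6Z8 had 17, 19, 54 and 17 reads in BF libraries, against 13, 12 and 13 in SF libraries. Its call was lost in 4 of the fits that leave out 1 library, that without BF replicate 3 among them (FDR p-value up to 0.129, edgeR). CYP6Z7, at 0.90 ± 0.44, was not called on gene reads (FDR p-value 0.0811, edgeR) and was called on exon reads (1.15). All 4 lie within the span of another gene, AAEL019495, which was itself higher in BF on day 3 (log2 fold change 1.40 ± 0.15).

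The CYP6M genes lie at the head of the large CYP6 array, and CYP6M9 and CYP6M5 had the largest day 3 log2 fold changes among the tested members. CYP6M9 (chr2:419127474-419143314, 8 exons) had 22.05, 24.04, 15.9 and 23.9 CPM in BF libraries, against 2.40, 2.43 and 1.76 CPM in SF libraries, a log2 fold change of 3.29 ± 0.28 (FDR p-value 2.22e-08, edgeR). CYP6M5 lies on the same strand inside the span of CYP6M9, and 94.1% of its reads were unique. It had 5.67, 5.85, 3.75 and 5.91 CPM in BF and 0.920, 0.457 and 0.454 CPM in SF (log2 fold change 3.11 ± 0.39), and because the spans overlap the values of these genes are not fully separate. CYP6M10 had 21.6, 22.4, 12.3 and 20.3 CPM in BF, against 4.22, 3.85 and 2.33 CPM in SF (2.46 ± 0.25). CYP6M6 had 9.89, 9.40, 7.85 and 9.55 CPM in BF, against 3.88, 3.29 and 2.41 CPM in SF (1.52 ± 0.19). CYP6M11, at the outer end of the array, did not pass the test (-0.27 ± 0.42). A relative, CYP6M2 of *Anopheles gambiae*, metabolises pyrethroids and DDT, but the substrates of these genes in the ovary are not known. Replicate 3 was the lowest of the 4 BF libraries for CYP6M5, CYP6M6, CYP6M9 and CYP6M10, and remained above every SF library. It was also the lowest for members outside the subfamily, among them CYP9M6, CYP9J9, CYP9J2, CYP9J16, CYP6Z9, CYP6P12 and CYP6N16. For others, such as CYP6Y3 and CYP9J28, it was not.

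Further along this array CYP6N9 had 6.09, 5.57, 3.55 and 4.61 CPM in BF libraries and 2.14, 1.39 and 1.64 CPM in SF libraries (1.52 ± 0.24). CYP6N13 had 2.10, 1.97, 1.91 and 1.25 CPM in BF and 1.30, 0.582 and 0.533 CPM in SF, with the lowest BF library just under the highest SF library (1.16 ± 0.33). CYP6N12 was counted at 32, 10, 22 and 11 reads in BF and at 13, 4 and 1 in SF (1.75 ± 0.67). The ranges of CYP6N12 overlapped, and 4 of the fits that leave out 1 library did not call it. CYP6N6 was called as well (1.60 ± 0.23). CYP6Y3 in the middle of the array was the exception among the abundant members: its BF libraries had 20.0, 17.1, 17.7 and 19.2 CPM and its SF libraries 21.99, 16.9 and 18.97 CPM. The ranges overlapped almost fully, with a log2 fold change of -0.06 ± 0.11 on gene reads and 0.13 on exon reads, neither called. In all, 8 of the 12 tested members of the array were higher on day 3 (32.3% of all tested genes).

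Of the members outside these arrays, CYP6P12 on chromosome 1 had 34.3, 32.8, 25.0 and 31.5 CPM in day 3 BF libraries, against 12.1, 12.6 and 10.1 CPM in SF libraries (log2 fold change 1.41 ± 0.18). It shares a subfamily with CYP6P3 of *Anopheles gambiae*, a pyrethroid oxidase. CYP6BB2, beside it, was called with little room (1.30 ± 0.55, FDR p-value 0.0452 by edgeR), and 14 of the fits that leave out 1 library lost it. CYP6N16 had 25.2, 15.4, 13.3 and 16.7 CPM in BF, against 6.82, 6.09 and 6.83 CPM in SF (1.42 ± 0.18), while its neighbour CYP6N17 had the reverse order of libraries. CYP6AK1 had 1.46, 1.41, 1.30 and 1.79 CPM in BF and 0.380, 0.312 and 0.237 CPM in SF (2.26 ± 0.35). CYP6AH1 (1.57 ± 0.22), CYP9AE1 (0.94 ± 0.18) and CYP6AG4 (1.39 ± 0.52) were also higher. CYP6AG4 had 19, 13, 32 and 78 reads in BF libraries, against 21, 9 and 14 in SF libraries, so that the groups overlapped. Its call was lost without BF replicate 4, SF replicate 2 or SF replicate 4 of day 3 (FDR p-value up to 0.191, edgeR). None of the 4 CYP6AG genes on chromosome 3, nor the CYP6F pair, was called on day 3.

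The 10 members left out of the test were CYP6AL1, CYP6BY1, CYP6CC1, CYP6N11, CYP9J6, CYP9J23, CYP9J24, CYP9J29, CYP9J30 and CYP9M7. They had at most 15 reads in any library. CYP9J29 had 28 reads in the 4 day 3 BF libraries and 2 in the 3 SF libraries, a ratio of 11.6 after scaling. The exact 95% interval of 2.93 to 101 covers counting error only. CYP6CC1 had 6 and 1 reads, and CYP6N11 had 4 and 2, in the same groups, with intervals that include a ratio of 1. For CYP6CC1 and CYP6N11 a difference was not detectable at this depth.

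Of all members, 19 overlap another annotated gene, 13 of them on the opposite strand only and 6 on the same strand. No source used here states whether the counting used the strand, so reads of a member and of its overlapping partner may not be fully separate. CYP6CC1 had at most 2 reads in any library, while its partner AAEL019513 had 60.7 to 86.4 CPM in day 3 BF libraries. Where in its span the reads of AAEL019513 fell was not looked at, so sharing of reads was not tested by this pair. The partner was itself higher in BF on day 3 for CYP6BB2 and CYP6P12 (AAEL019513, 1.43 ± 0.13), CYP6N16 and CYP6N17 (AAEL005649, 1.04 ± 0.14), CYP9AE1 (AAEL003766, 1.56 ± 0.27) and CYP6M5 and CYP6M9 (AAEL022837, a LncRNA, 2.35 ± 0.38). It was lower for CYP6AK1 (AAEL023534, -0.36 ± 0.10). CYP9J9, CYP9J2 and CYP9M6 are not among the members with such a partner in these results. Genes between the members were looked at in the same fit: over the 4 arrays that hold such genes, 8 of 11 tested were higher on day 3 and 0 lower, against 32.3% and 32.6% of all tested genes. They were 4 of 6 within the CYP9J array, 1 of 2 within the 13-gene CYP6 array (the LncRNA AAEL022837), 2 of 2 in the array of CYP6BB2, CYP6P12 and CYP6CC1, and 1 of 1 in that of CYP9M6, where AAEL025530 had a log2 fold change of 4.35 ± 0.37 (FDR p-value 1.6e-08, edgeR). The files give these genes no CYP symbol.

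Reads on introns had to be considered, since total RNA was sequenced. The intron share of all gene reads was between 9.11 and 13.2% in day 3 BF libraries and between 4.36 and 5.71% in day 3 SF libraries. The same share for the members alone was between 2.28 and 3.07% in BF and between 2.71 and 3.22% in SF. The groups thus overlapped for the members and did not for all genes. The 2 shares are not alike, because 37 members have 2 exons and 3 have 1 exon. The most abundant member, CYP9M6, spans 1826 bases, of which 1764 are exon. With so little intron the share of the members had little room to rise, and it says little about unspliced RNA. When exon reads were tested in place of gene reads, 29 members were again higher and 0 lower (28.5% and 27.2% of the 13297 genes tested on exon reads), of which 28 were shared with the gene reads, CYP6Z7 taking the place of CYP9M8. The log2 fold changes on exon reads were larger by a median of 0.20. Some members had far more intron reads. In CYP6AK1 31.8% of reads in day 3 BF and 47.8% in day 3 SF fell on introns, and its log2 fold change was 2.83 on exon reads. In CYP6AH1 the shares were 35.7% and 38.5%. CYP9M8 went the other way, with 55.9% of 59 reads in day 3 BF and 23.5% of 17 reads in day 3 SF on introns.

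**Figure D3:**
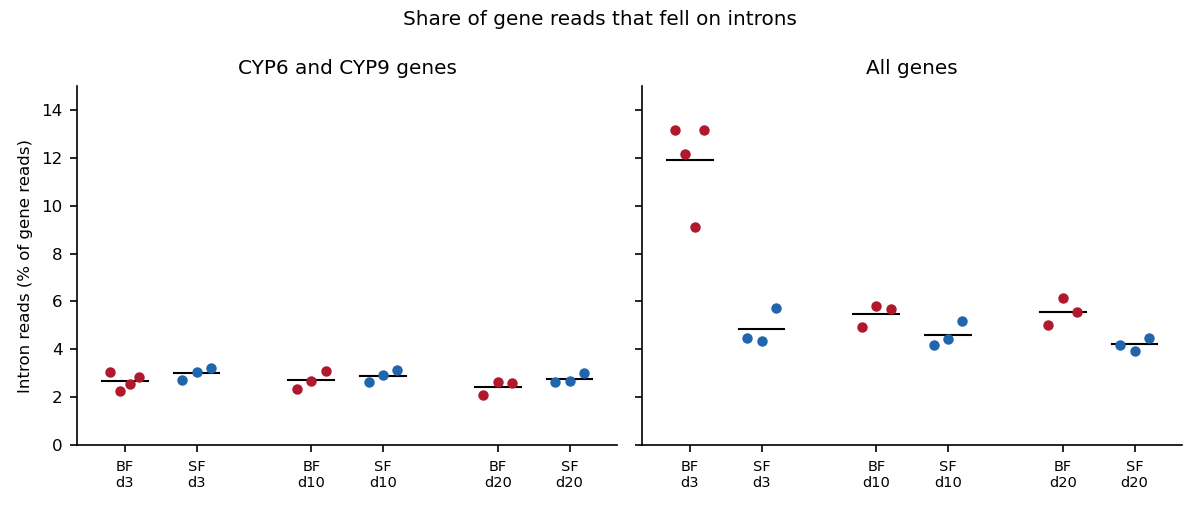
Intron reads as a percentage of gene reads (y axis) per library for the CYP6 and CYP9 genes (left) and all genes (right), in BF and SF ovaries on days 3, 10 and 20 (d3, d10, d20); points are libraries and lines are group means. Over all genes the day 3 BF libraries sit at 9.11 to 13.2%, above all others, while for the members they sit at 2.28 to 3.07%, within the range of the other groups.

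On day 10, 14 of 45 tested members were higher in BF ovaries and 0 lower (8.55% of all tested genes were higher and 10.7% lower), with a median log2 fold change of 0.64 against 0.02 over all tested genes. Every BF library was above every SF library for 24 members (18.5% of all tested genes) and below for 2, CYP6F3 and CYP9J22 (20.2%). In CYP9J22 this rests on a near tie. Its highest BF library had 0.48397 CPM and its lowest SF library 0.4844 CPM, each from 26 reads. CYP9M6 had 24.5, 20.2 and 12.6 CPM in BF libraries, against 11.9, 9.64 and 7.86 CPM in SF libraries (log2 fold change 0.96 ± 0.21). CYP9J9 had 9.66, 9.92 and 11.3 CPM in BF, against 6.58, 7.34 and 5.52 CPM in SF (0.67 ± 0.14). CYP6M6 had the lowest FDR p-value of the day (0.00269, edgeR), with 4.23, 4.62 and 3.79 CPM in BF and 1.83, 2.12 and 2.17 CPM in SF. In these 3 genes all BF libraries were above all SF libraries, by a small margin in CYP9M6.

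Of the other day 10 calls, CYP6Y3, which was not called on day 3, had 22.1, 22.9 and 20.8 CPM in day 10 BF libraries, against 17.2, 16.1 and 14.2 CPM in SF libraries (0.47 ± 0.12, FDR p-value 0.009996 by edgeR). CYP6M9 had 3.85, 3.11 and 2.62 CPM in BF and 1.64, 1.72 and 0.693 CPM in SF (1.23 ± 0.29). CYP6Z9 had 13.2, 12.6 and 9.33 CPM in BF and 7.58, 6.54 and 6.96 CPM in SF (0.74 ± 0.20). No SF library reached the BF range in any of them. CYP6P12 (0.68 ± 0.19), CYP9J2 (0.61 ± 0.18), CYP6N16 (0.59 ± 0.19), CYP6M10 (0.77 ± 0.26) and CYP6N9 (0.84 ± 0.25) were called as well. CYP6N13 (1.17 ± 0.34), CYP9J17 (1.22 ± 0.36) and CYP6N12 (2.64 ± 0.81) completed the list. CYP6N12 had 26, 13 and 7 reads in BF and 2, 2 and 3 in SF. The count depended on single libraries: it was 8 without BF replicate 1, 6 without BF replicate 2, 6 without SF replicate 2 and 5 without SF replicate 4 of day 10, and 4 of the 14 calls held whichever library was left out.

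On day 20, 8 of 45 tested members were higher in BF and 0 lower (9.31% of all tested genes were higher and 12.1% lower), with a median log2 fold change of 0.55 against 0.02 over all tested genes. Every BF library was above every SF library for 16 members (18% of all tested genes) and below for 0 (19.2%). CYP9J2 led the calls, with 10.1, 9.32 and 8.43 CPM in BF libraries, against 3.71, 4.65 and 3.93 CPM in SF libraries (log2 fold change 1.18 ± 0.18, FDR p-value 0.000494 by edgeR). CYP9M6 had 22.2, 16.6 and 13.6 CPM in BF, against 8.54, 7.67 and 7.09 CPM in SF (1.17 ± 0.22). CYP6Z9 had 18.97, 11.3 and 14.1 CPM in BF, against 8.10, 6.84 and 6.41 CPM in SF (1.06 ± 0.20). All BF libraries were above all SF libraries in these genes.

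CYP9J9 had 8.32, 9.05 and 8.20 CPM in day 20 BF libraries, against 5.75, 4.75 and 5.41 CPM in SF libraries (0.68 ± 0.14). CYP9J16 had 4.18, 3.89 and 4.70 CPM in BF and 2.96, 2.14 and 2.40 CPM in SF (0.77 ± 0.17). CYP6P12 had 15.3, 12.8 and 9.76 CPM in BF and 7.99, 8.03 and 6.15 CPM in SF (0.77 ± 0.19). CYP6M9 (1.12 ± 0.29) and CYP6AG6 (0.74 ± 0.22) were the remaining calls, again with no overlap of libraries. CYP6AG6 was at 2.93, 2.58 and 3.51 CPM in BF and at 1.62, 1.61 and 2.18 CPM in SF. CYP6M9, CYP6P12, CYP6Z9, CYP9J2, CYP9J9 and CYP9M6 were called on all 3 days. CYP6Y3, called on day 10, lay close to the threshold on day 20 (0.32 ± 0.12, FDR p-value 0.0556 by edgeR) and was called there on exon reads (0.37, FDR p-value 0.0357).

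**Figure D4:**
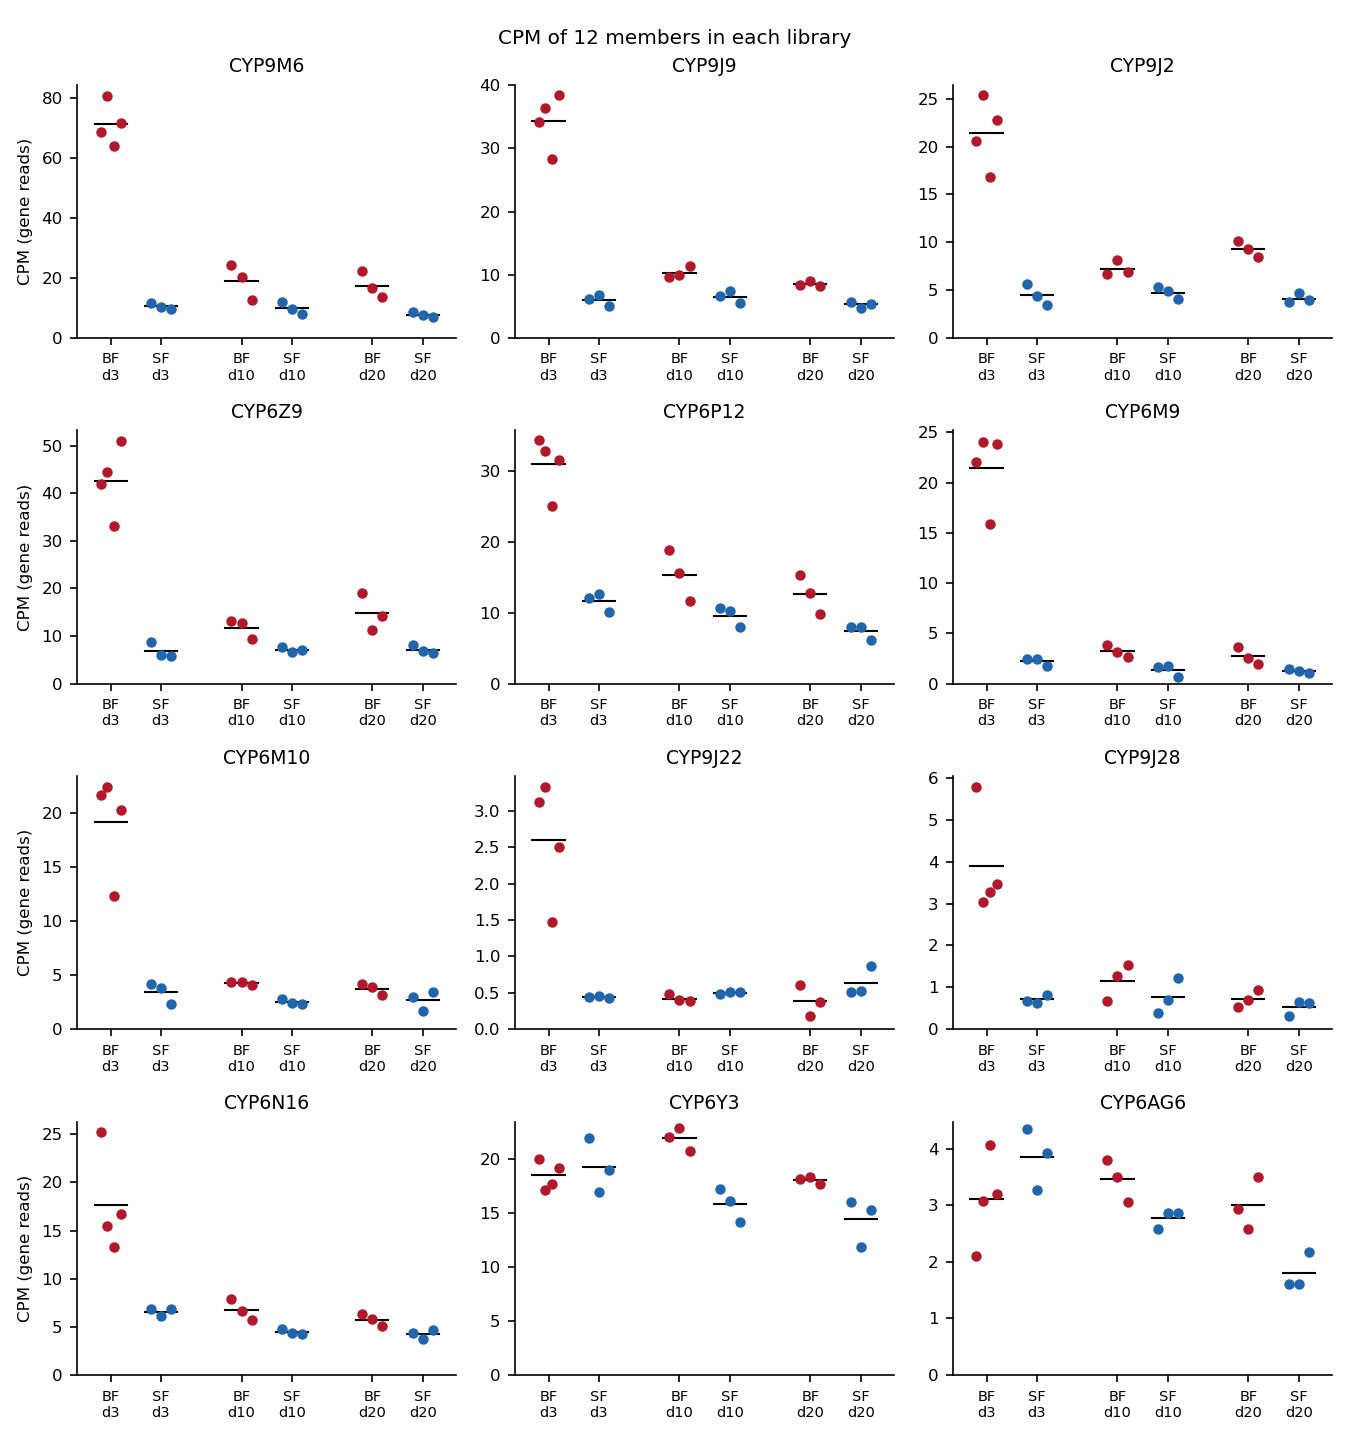
CPM on gene reads (y axis, from 0) of 12 members in each library of BF (red) and SF (blue) ovaries on days 3, 10 and 20 (d3, d10, d20); points are libraries and lines are group means. In CYP9M6 the 4 day 3 BF libraries sit between 63.9 and 80.9 CPM, against 9.75 to 11.6 CPM in day 3 SF, while the BF and SF libraries of CYP6Y3 overlap on day 3.

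Whether the response to blood differed between days was tested directly, as the BF against SF effect of day 3 minus that of a later day. These contrasts share the day 3 libraries. The effect was larger on day 3 than on day 10 in 15 members and smaller in 2, CYP6N17 and CYP6Y3 (17.3% of all tested genes were larger and 19.4% smaller). It was larger on day 3 than on day 20 in 18 members and smaller in 2, CYP6AG6 and CYP6N17 (18.9% larger and 19.9% smaller). CYP9J22 had the widest gap, with an effect 2.78 ± 0.50 log2 units above that of day 10 and 3.23 ± 0.50 above that of day 20. On day 10 its BF libraries had 0.484, 0.399 and 0.383 CPM and its SF libraries 0.484, 0.506 and 0.508 CPM, so that the BF libraries were not above the SF libraries there. CYP6AK1 (2.52 ± 0.52 above day 20) had a day 20 log2 fold change of -0.26, not called.

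The day 3 effect of CYP9J9 exceeded that of day 10 by 1.85 ± 0.19 and that of day 20 by 1.84 ± 0.19. In the interaction of day 20 against day 10 edgeR called 0 members, with 4 at an unadjusted p under 0.05, and DESeq2 called 0 too (0% of all tested genes were called). The CYP6Y3 effect on day 3 minus that on day 10 was -0.53 log2 units, a call that was lost on exon reads (-0.36, FDR p-value 0.107 by edgeR).

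**Figure D5:**
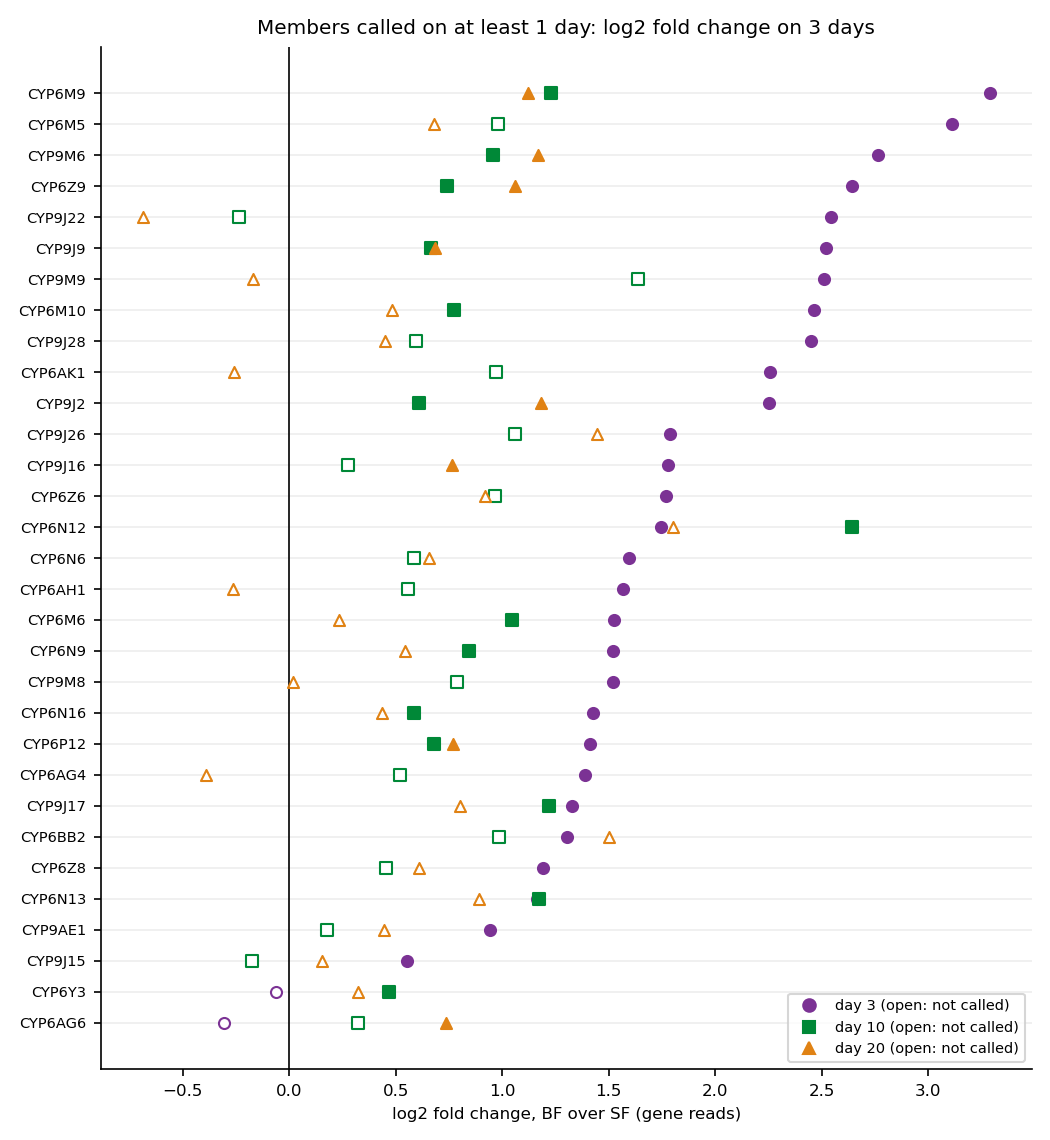
Log2 fold change of BF over SF (x axis) on day 3 (circles), day 10 (squares) and day 20 (triangles) for the 31 members called on at least 1 day, ordered by their day 3 value; filled symbols were called and open ones were not. The members were chosen by these calls, so their order and spread are a description; CYP9J9, for example, sits at 2.52 on day 3, 0.67 on day 10 and 0.68 on day 20.

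SF ovaries were also compared between days. For SF day 10 against SF day 3, edgeR called 0 members and DESeq2 0, and 6 members had an unadjusted p under 0.05, all lower on day 10 (0.0719% of all tested genes were called in either direction). SF day 20 ovaries were lower than SF day 3 ovaries in 4 members and higher in 0 (7.03% of all tested genes were lower and 10.6% higher). CYP6AG6 had 1.62, 1.61 and 2.18 CPM in SF day 20 libraries, against 4.34, 3.26 and 3.93 CPM in SF day 3 libraries (-1.09 ± 0.22, FDR p-value 0.00362 by edgeR). The other 3 were CYP6P12 (-0.65 ± 0.19), CYP6N16 (-0.63 ± 0.19) and CYP6Y3 (-0.42 ± 0.12). The count was 2 without SF day 20 replicate 1, 1 without SF day 20 replicate 2 and 1 without SF day 3 replicate 1. The BF value of CYP6AG6 on day 20 thus stood against an SF group below that of day 3. The same held for CYP6P12, with SF means of 11.6 CPM on day 3 and 7.39 CPM on day 20. CYP6Y3 had SF means of 19.3, 15.85 and 14.4 CPM on days 3, 10 and 20. Its BF means were 18.5, 21.9 and 18.1 CPM.

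Other detoxification genes, chosen by symbol, were counted in the same day 3 test. Of 32 tested CYP4 and CYP325 genes, a P450 group whose CYP4 relatives in mammals hydroxylate fatty acids, 11 were higher and 6 lower in BF (median log2 fold change 0.47), against 32.3% and 32.6% of all tested genes. Of 14 further tested CYP genes, among them the hormone-synthesising and mitochondrial P450s, 5 were higher and 7 lower (median -0.37). Glutathione S-transferases, which conjugate oxidised products, had 7 of 20 higher and 7 lower (median -0.12). Carboxylesterases with a CCE symbol, which split ester bonds, had 2 of 7 higher and 0 lower (median 0.35). The P450 reductase gene was not analysed here. No test of the difference between these lists and the CYP6 and CYP9 genes was made.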

How the data were processed

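Per the methods of the study, the authors trimmed the reads and used the CLC genomics workbench to map them to AaegL5.0 and for the expression analysis. The methods do not state whether reads or read pairs were counted, and the counts are called reads here. Counts were deposited raw, as integers for genes, exons and introns. RPKM was computed by the authors on exon reads and exon length. The methods name a VectorBase transcript set for the gene ontology step. For the counting, no source used here states the annotation release, the strand setting or how multi-mapping reads were assigned.

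Total gene reads of all 19 libraries were fitted in R 4.3.3 with edgeR 4.0.16 (filterByExpr with a minimum count of 10 and a total of 15 over 6 groups, TMM, robust quasi-likelihood), and p-values were adjusted by Benjamini-Hochberg over all 13904 tested genes. CPM used the TMM-scaled library sizes. The script was tested on simulated counts. Libraries of 1 group differed by more than sampling noise, and each counted as 1 replicate. Alternatives were exon reads, unique reads, DESeq2 1.42.0, other scalings and filters, separate fits per day, a stricter FDR, the replicate number as a block, and leaving out each library.

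The 21 members given per library were those called on day 10 or 20, up to 12 called on day 3 with the largest change, no overlap of libraries and 10 or more reads throughout the higher group, the 3 of highest mean RPKM, and the members called in SF day 20 against SF day 3. Members singled out beyond these were chosen after their values were seen. The members and lists were chosen with earlier results of these data known. Figures were drawn with matplotlib 3.10.9.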

Additional observations from a re-analysis of the deposited data

Results flagged for a closer look

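Of the 21 members given per library, 2 had 1 of the 4 day 3 BF libraries apart from the others, where chance gives about 1 in 20. CYP6M5 was at 3.75 CPM in replicate 3, a gap of 0.888 of the group's range, and CYP9J28 was at 5.77 CPM in replicate 1, a gap of 0.842 of the range.

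Of the members given per library, 12 were picked for their day 3 change, so the counts that follow are a description. In the interaction test of edgeR, 13 of the 21 had a BF against SF effect on day 3 that differed from that of day 10, where 17.3% of all tested genes had a larger and 19.4% a smaller day 3 effect. In log2 units the day 3 effect was larger by 2.78 in CYP9J22, 2.13 in CYP6M5, 2.06 in CYP6M9, 1.90 in CYP6Z9, 1.85 in CYP9J9, 1.85 in CYP9J28, 1.81 in CYP9M6, 1.69 in CYP6M10, 1.64 in CYP9J2, 1.502 in CYP9J16, 0.84 in CYP6N16 and 0.74 in CYP6P12. In CYP6Y3 it was smaller, with a difference of -0.53. Leaving out 1 library lost the call of CYP6P12 in 8 fits, that of CYP6N16 in 2 and that of CYP9J28 in 1. Between day 3 and day 20 the effects of 16 members differed (18.9% of all tested genes larger and 19.9% smaller). Here the call of CYP9M9 was lost in 12 of the fits that leave out 1 library, and that of CYP6N9 in 9. The day 3 effect was larger by 3.23 in CYP9J22, 2.68 in CYP9M9, 2.52 in CYP6AK1, 2.43 in CYP6M5, 2.17 in CYP6M9, 2.00 in CYP9J28, 1.98 in CYP6M10, 1.84 in CYP9J9, 1.60 in CYP9M6, 1.58 in CYP6Z9, 1.29 in CYP6M6, 1.07 in CYP9J2, 1.01 in CYP9J16, 0.99 in CYP6N16 and 0.98 in CYP6N9, and the difference was -1.04 in CYP6AG6.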

How the results depend on the processing

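The count of members called on day 3 was between 23 and 29 when 1 library was left out, and between 27 and 29 under other scalings, filters, unique reads, exon reads, separate days and DESeq2. It was 24 among genes that pass the filter in the SF libraries alone and 23 at an FDR of 0.01. The day 10 count was between 5 and 15 when 1 library was left out and 5 at an FDR of 0.01. The day 20 count was between 7 and 10 when 1 library was left out and 6 at an FDR of 0.01. The count for SF day 20 against SF day 3 was between 1 and 5 when 1 library was left out and 1 at an FDR of 0.01. For the day 3 effect against that of day 10 it was between 13 and 18 when 1 library was left out and 9 at an FDR of 0.01, and against that of day 20 it was between 15 and 21. No called difference of a member given per library changed its direction under these alternatives, while CYP6Y3, not called on day 3, was at -0.06 on gene reads and 0.13 on exon reads. Replicate numbers were not taken as pairs, because the methods of the study name no replicate block. The correlation of same-numbered BF and SF libraries was positive in all 9 comparisons. It ran from 0.0009 for replicate 1 of day 3 to 0.168 for replicate 4 of day 10, and was above 0.1 in 2 of 9. On days 10 and 20 each library was closest to its own number. On day 3 this held for BF replicates 2 and 4 but not for BF replicate 1. The methods of the study describe 18 of the samples as 3 biological replicates, numbered 1, 2 and 4. They do not say how BF and SF females of 1 number were matched, so pairing was not settled. With the replicate number as a block, 29 members were called on day 3 (26 higher and 3 lower, CYP6AG6, CYP6F3 and CYP6N17), 16 on day 10, 12 on day 20 and 6 for SF day 20 against SF day 3. The absence of falls on day 3 therefore depends on leaving the block out. The share of all genes called with the block is not given here. Shallow members, with 10 of 55 untested, limit what these counts can show.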

Other observations

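The read counts of CYP9J31 and CYP6S3 differed widely between libraries of 1 group. CYP9J31 had 290, 299 and 21 reads in day 10 BF libraries, against 78, 110 and 6 in day 10 SF libraries. The lowest value of each group was in replicate 4, and each BF library was above the SF library of the same number. In day 20 SF libraries CYP9J31 had 61, 53 and 114 reads, with replicate 4 the highest. CYP6S3 had 185, 80, 126 and 156 reads in day 3 BF libraries, against 95, 66 and 18 in day 3 SF libraries. It had 219, 16 and 92 in day 20 SF libraries. Neither was called on any of the 3 days, and CYP9J31 overlaps another gene, AAEL002642, on the same strand, which was higher in BF on day 3 (log2 fold change 1.54 ± 0.12).

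The other detoxification genes were also counted in the later contrasts, with no test between the lists. On day 20, 5 of 20 tested glutathione S-transferases were higher in BF and 2 lower, against 3 higher and 0 lower of 32 CYP4 and CYP325 genes, 0 of 7 carboxylesterases, and 9.31% higher and 12.1% lower of all tested genes. On day 10, 2 glutathione S-transferases were higher and 1 lower, against 1 higher and 0 lower of the CYP4 and CYP325 genes and 8.55% higher and 10.7% lower of all tested genes.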
